A study of Mus musculus with 8 samples.

Results

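AMPA receptor genes were read in nuclear RNA of place cells of the mouse hippocampus, neurons that fire at particular places. The set held 9 genes, chosen by name from the 15519 genes of the table. They were the pore-forming subunits Gria1, Gria2, Gria3 and Gria4 and the auxiliary proteins Cnih2, Cnih3, Shisa6, Shisa7 and Shisa9, and all 9 were found. The study set 4 libraries labelled Day 0 place cells beside 4 labelled Recurring place cells. Both groups were of WT genotype and hippocampal tissue, with the cell type given as pyramidal cell. Cells were classed by imaging in the living brain during navigation, and the nuclei of the classed cells were marked by light before collection. The labels do not define the classes further and give neither age, sex nor number of nuclei per library. The titles carry a different mouse number for every library, which is the sole sign that the animals were separate, so the p-values speak of the spread among these libraries and may be technical in part.

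AMPA receptors carry most of the fast excitatory current at glutamate synapses of the brain. Each is a tetramer of GluA subunits, encoded by Gria1 to Gria4, and auxiliary proteins of the TARP, cornichon and Shisa families bind it and set its export from the endoplasmic reticulum, its synaptic anchoring and its gating. In hippocampal pyramidal neurons the receptors are built mainly from the Gria1, Gria2 and Gria3 products, and receptors are inserted and removed during synaptic plasticity.

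The stretch of each subunit gene that codes for the pore is printed here, because the genes encode the same residues there and Gria2 is known to differ by a later change to its RNA. RNA editing changes a glutamine codon of Gria2 to one read as arginine, which makes receptors with that subunit nearly impermeable to calcium. The lines give 45 bases of spliced coding sequence, 5′ to 3′, with the glutamine codon at the edited site and its counterparts in capitals. They come from GENCODE vM21 on GRCm38, an earlier mouse build than the GRCm39 used for the reads.
Gria1: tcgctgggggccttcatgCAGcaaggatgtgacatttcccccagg
Gria2: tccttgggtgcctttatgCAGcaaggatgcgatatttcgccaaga
Gria3: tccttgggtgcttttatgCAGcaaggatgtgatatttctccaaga
Gria4: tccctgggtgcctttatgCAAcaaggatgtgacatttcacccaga
Compared with Gria2, the bases differed at 9 of 45 positions in Gria1, 3 in Gria3 and 6 in Gria4. All 15 encoded residues were the same in each. The capitals mark codon 607 of 883 in the Gria2 reading frame, 600 of 907 in Gria1, 612 of 888 in Gria3 and 608 of 902 in Gria4. Every stretch runs over 2 coding exons. In Gria2, on the minus strand at chr3:80702656-80706931, these are exons 11 and 12 of 16. The Gria1 stretch lies on the plus strand at chr11:57243076-57283510, in exons 11 and 12 of 16. The Gria3 stretch lies on the plus strand at chrX:41610247-41620797 and the Gria4 stretch on the minus strand at chr9:4462104-4464157, both in exons 12 and 13 of 17. The deposited values are amounts per gene, so editing at this codon was not measured.

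Depth ran from 8374986 to 14887866 reads in the 8 libraries, with 10718 to 13807 genes detected. Levels below are normalized counts, which are reads divided by a size factor of 0.837 to 1.61 per library, and tests used log2 of the normalized count plus 1. All 10 markers of CA1 pyramidal neurons were in the table, and 9 had reads in every library. Their summed normalized counts ran from 29867 to 42206 in Day 0 and from 31314 to 48044 in Recurring libraries. Markers of other cells were present too. Summed over the 7 astrocyte genes in the table they reached 1660 to 2451 in Day 0 and 1844 to 17498 in Recurring libraries. Over 8 interneuron genes the sums were 120 to 2282 and 1216 to 11251. The 6 oligodendrocyte genes summed to 1354 to 10066 in Day 0 and 1246 to 6848 in Recurring libraries. For 3 CA3 pyramidal genes the sums were 3019 to 4085 and 1463 to 5173, and for 3 dentate granule cell genes 0 to 377 and 1 to 773. Xist, the RNA of the inactive X chromosome, had 9072 to 15633 reads in replicates 1 and 2 of both groups and at most 67 in the rest.

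Gria1, Gria2 and Gria3 were among the most abundant genes of these nuclei, in Day 0 and Recurring libraries alike. The 4 subunits together took 0.674% to 0.866% of all reads, with a median of 0.814% over the 8 libraries. Gria2 alone took 0.38% to 0.595%. Ranked by reads per kb of exon among 14620 genes with a known length, Gria2 stood between places 13 and 39, Gria1 between 25 and 171 and Gria3 between 100 and 255. Gria4 lay far below them, with a median place of 5869. Reads were found in all 8 libraries for 7 of the 9 genes, all but Gria4 and Shisa9, against 54.4% of tested genes.

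Per kb of exon, the mean normalized count over all 8 libraries put the genes in the order Gria2 (3080), Gria1 (2150), Gria3 (1150), Cnih2 (421), Shisa7 (219), Shisa6 (138), Gria4 (109), Cnih3 (87.8) and Shisa9 (20.7). The step from Gria3 to Cnih2 was the one between neighbours whose ranges did not meet, and Gria3 led Cnih2 in 8 of 8 libraries. Gria2 exceeded Gria1 in 7 of 8 libraries, all but Day 0 replicate 1, and Gria1 exceeded Gria3 in 7, all but Day 0 replicate 4. Other neighbours led in 4 to 7 of 8 libraries and had ranges that met, so their places are not set apart by the spread. Dividing by the length of the longest coding transcript, a choice made after the values were seen, kept the same order of means. They were 4620 for Gria2, 2340 for Gria1 and 2180 for Gria3, so Gria1 and Gria3 came close. The counts of libraries above rest on exon length and were not taken with this one, so they may differ under it.

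**Figure D1:**
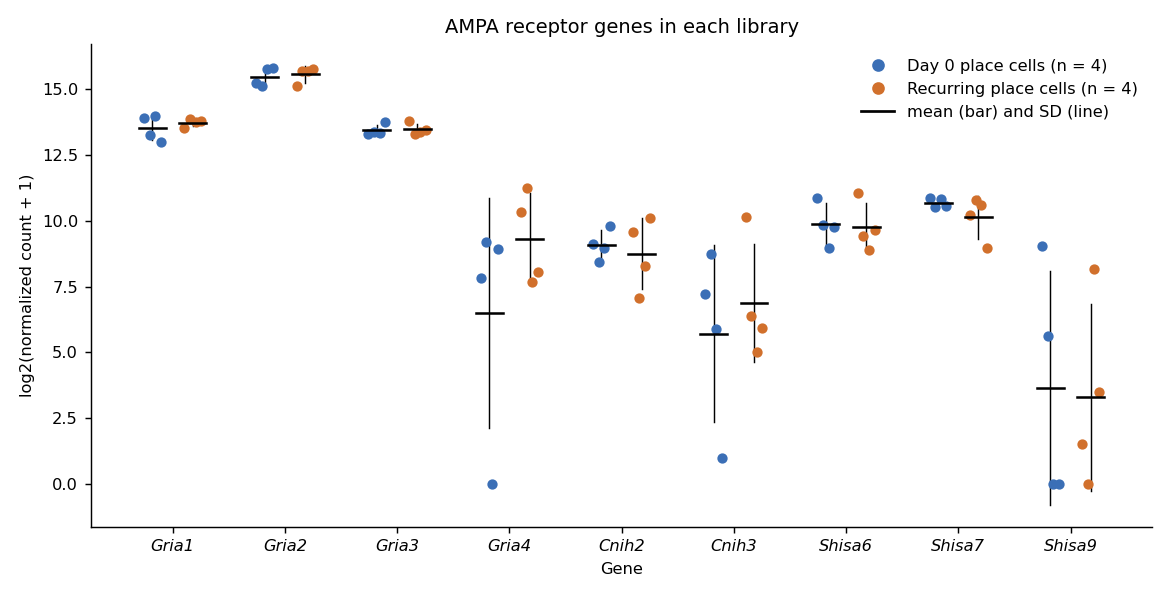
Log2 of the normalized count plus 1 (vertical axis) for each of the 9 genes, 1 point per library, with 4 Day 0 libraries in blue and 4 Recurring libraries in orange, the mean as a bar and the SD as a line. Gria1, Gria2 and Gria3 form tight groups at the top, while Gria4, Cnih3 and Shisa9 scatter widely, and the groups overlap for every gene.

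None of the 9 genes passed the test for a difference between Recurring and Day 0 cells. Of 11078 genes tested with limma, 0 (0.0%) passed an adjusted p of 0.05, and 0 of the 9 members did, all of which were tested. The lowest adjusted p of a member was 0.981. At an unadjusted p under 0.05 limma gave 401 of all tested genes (3.62%), 1.88% higher and 1.74% lower in Recurring cells, and 0 of 9 members. In 267 of all tested genes (2.41%) the ranges of the groups did not overlap, and this was so for 0 of the 9. Means were higher in Recurring cells for 5 members and lower for 4, with a median difference of 0.05 on the log2 scale against 0.00 over all tested genes. With limma's voom on the reads, 0 genes were called as well.

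Gria1 encodes GluA1, the subunit whose insertion at synapses is best known from long-term potentiation. Its normalized counts were 15368, 9644, 16117 and 8218 in Day 0 replicates 1 to 4 and 11825, 14761, 13906 and 14182 in Recurring replicates 1 to 4. The Day 0 libraries held both the highest and the lowest values, and the Recurring libraries lay inside that range. On the log2 scale Gria1 averaged 13.53 ± 0.48 in Day 0 and 13.73 ± 0.14 in Recurring libraries (SD, n = 4 each). The difference, Recurring minus Day 0, was 0.20 on the log2 scale (SE 0.26, limma adjusted p = 0.998). Its 95% interval ran from a fold of 0.782 to 1.69.

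Gria2 encodes GluA2, the edited subunit that limits calcium entry. Normalized counts of Gria2 were 38353, 34998, 55512 and 57378 in Day 0 and 35002, 52947, 52777 and 56295 in Recurring replicates 1 to 4. In both groups the libraries fell at either a lower or a higher level, with replicates 1 and 2 of Day 0 and replicate 1 of Recurring cells low, so the groups overlapped over their whole range. Those 3 libraries were among the 4 with the most reads, which were also the 4 with 9072 to 15633 reads of Xist. The remaining library of these 4, Recurring replicate 2, was at the higher level. Depth and Xist divide the libraries alike, and the part of either in this was not tested. On the log2 scale Gria2 averaged 15.47 ± 0.36 in Day 0 and 15.56 ± 0.32 in Recurring libraries (SD, n = 4 each), a difference of 0.09 (SE 0.21, limma adjusted p = 0.998). The 95% interval ran from a fold of 0.786 to 1.44. With the variance trend, no other of the 11078 tested genes had a smaller limma SE. Without the trend the SE was 0.59 for Gria2 and 0.57 for Gria3, and 125 tested genes had a smaller SD within groups than Gria2.

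Gria3 encodes GluA3 and lies on the X chromosome. Gria3 had normalized counts of 10052, 10478, 10326 and 13773 in Day 0 and 14068, 10020, 10671 and 11301 in Recurring replicates 1 to 4. Day 0 replicate 4 and Recurring replicate 1 were the high libraries, and the others lay close together in both groups. Of these high libraries, Recurring replicate 1 had 15633 reads of Xist and Day 0 replicate 4 had 14. On the log2 scale Gria3 averaged 13.43 ± 0.21 in Day 0 and 13.48 ± 0.21 in Recurring libraries (SD, n = 4 each), a difference of 0.05 (SE 0.24, limma adjusted p = 0.998), with a 95% interval from a fold of 0.724 to 1.47. The SD within groups, 0.21 on the log2 scale, was smaller in 16 of the 11078 tested genes (0.144%). The median SD within groups was 2.36 over all tested genes and 0.62 over the 1108 of them with the highest levels, beside 0.36 for Gria1 and 0.34 for Gria2.

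Gria4 encodes GluA4, a subunit with fast kinetics that in the adult hippocampus is known chiefly from interneurons. Its normalized counts were 224, 589, 0 and 490 in Day 0 and 1298, 2412, 203 and 262 in Recurring replicates 1 to 4. Recurring replicates 1 and 2 were above every other library, Recurring replicates 3 and 4 lay among the Day 0 values, and Day 0 replicate 3 had no read. A floor of 3 reads would be 3.59 normalized counts in that library. On the log2 scale Gria4 averaged 6.49 ± 4.37 in Day 0 and 9.32 ± 1.74 in Recurring libraries (SD, n = 4 each), and the ratio of the mean counts was 3.21. The difference of 2.83 on the log2 scale (SE 1.77, limma adjusted p = 0.981) had a 95% interval from -0.89 to 6.56. Without Day 0 replicate 3 it was 0.67 (SE 1.0), and with weights per library it was 1.55 (SE 1.59).

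**Figure D2:**
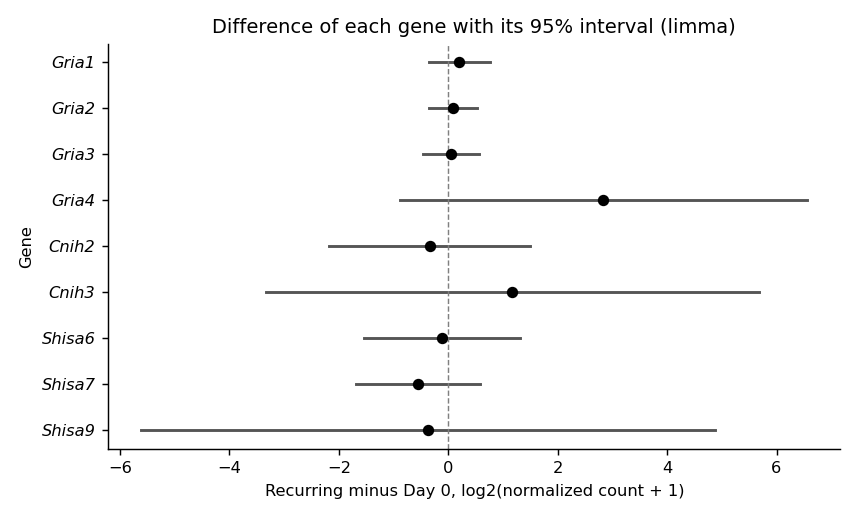
Difference of each gene between Recurring and Day 0 cells (horizontal axis, log2 scale, point) with its 95% interval from limma (line), over 4 libraries per group. The intervals of Gria1, Gria2 and Gria3 are the narrowest, that of Gria4 runs from -0.89 to 6.56, and each of the 9 crosses 0.

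Marker genes of other cell types moved with Gria4 in some libraries. The 8 interneuron genes in the table summed to 2282, 502, 902 and 120 normalized counts in Day 0 and 1390, 11251, 3503 and 1216 in Recurring replicates 1 to 4. Recurring replicate 2, which had the most Gria4, was also highest here, with 5740 reads of Gad1 and 1781 of Gad2, which encode the enzymes that make GABA. Recurring replicate 3, second in this sum, had the least Gria4 of its group, and its sum came mostly from Vip, a neuropeptide gene, with 2310 reads beside 35 of Gad2 and 2 of Slc32a1. Recurring replicate 1, second in Gria4, had 6 reads of Gad1, and 4 of the 8 genes stood at 0 in it, among them the GABA vesicle transporter Slc32a1. Over all libraries, 1 to 6 of the 8 interneuron genes were at 0. The 7 astrocyte genes summed to 1894, 2451, 1660 and 2428 in Day 0 and 17498, 8251, 3434 and 1844 in Recurring replicates 1 to 4. Here Recurring replicates 1 and 2 were the high pair, as in Gria4, and 0 of the 7 genes were at 0 in either, against 0 to 3 in the other libraries. The 3 genes of oligodendrocyte precursors summed to 0 to 136 in Day 0 and 393 to 505 in Recurring libraries, with 2 of the 3 at 0 in Recurring replicates 1 and 2. The part of these cells in the Gria4 reads was not tested. In bulk libraries such as these, more cells of a type and more RNA per cell cannot be told apart.

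**Figure D3:**
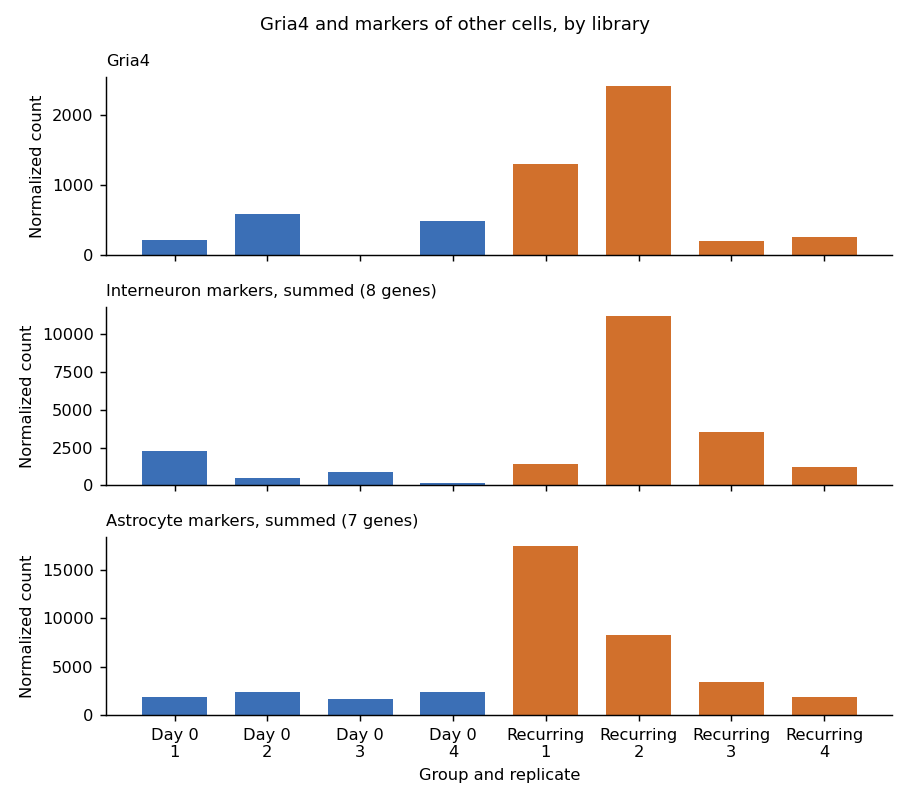
Normalized counts per library (bars from 0, vertical axes on separate scales) of Gria4, of 8 interneuron markers summed and of 7 astrocyte markers summed, with Day 0 libraries in blue and Recurring libraries in orange. Gria4 peaks at 2412 in Recurring replicate 2, where the interneuron sum is 11251, and the astrocyte sum peaks at 17498 in Recurring replicate 1.

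The make-up of the subunit pool was read as the share of each gene in the reads per kb of Gria1 to Gria4 within a library, which needs no size factor. Gria2 held 40.7%, 45.0%, 49.0% and 56.6% in Day 0 and 38.5%, 47.0%, 49.8% and 50.6% in Recurring replicates 1 to 4. It had the largest share in 7 of 8 libraries, and the groups overlapped, with means of 47.8% ± 6.75 and 46.5% ± 5.52 (SD, n = 4 each; 2-sided exact permutation p = 0.8). Gria1 held 41.9%, 31.9%, 36.6% and 20.8% in Day 0 and 33.5%, 33.7%, 33.8% and 32.8% in Recurring replicates 1 to 4. The Recurring shares of Gria1 thus lay within 0.991 percentage points of each other and the Day 0 shares within 21.1, around nearly equal means of 33.4% and 32.8% (exact permutation p = 0.886). That difference in range was picked out after the values were seen and was not tested.

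Gria3 shares were 14.4% to 21.4% in Day 0 and 14.0% to 24.4% in Recurring libraries (exact permutation p = 0.83, n = 4 each). Gria4 shares were 0% to 1.87% in Day 0 and 0.474% to 5.28% in Recurring libraries (exact permutation p = 0.343, n = 4 each), with the 2 highest in Recurring replicates 1 and 2. The difference in mean Gria4 share was 1.55 percentage points, and 0.616 without Recurring replicate 2. The 4 genes summed to 6219 ± 954 normalized counts per kb in Day 0 and 6763 ± 643 in Recurring libraries (SD, n = 4 each). Over the 8 shares compared, auxiliary genes included, every adjusted p was 0.886, and the 70 ways of assigning the libraries give no p under 0.0286. With the longest coding transcript as the length, the Day 0 and Recurring means became 49.8% and 49.0% for Gria2, 25.1% and 25.6% for Gria1 and 24.3% and 23.4% for Gria3.

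**Figure D4:**
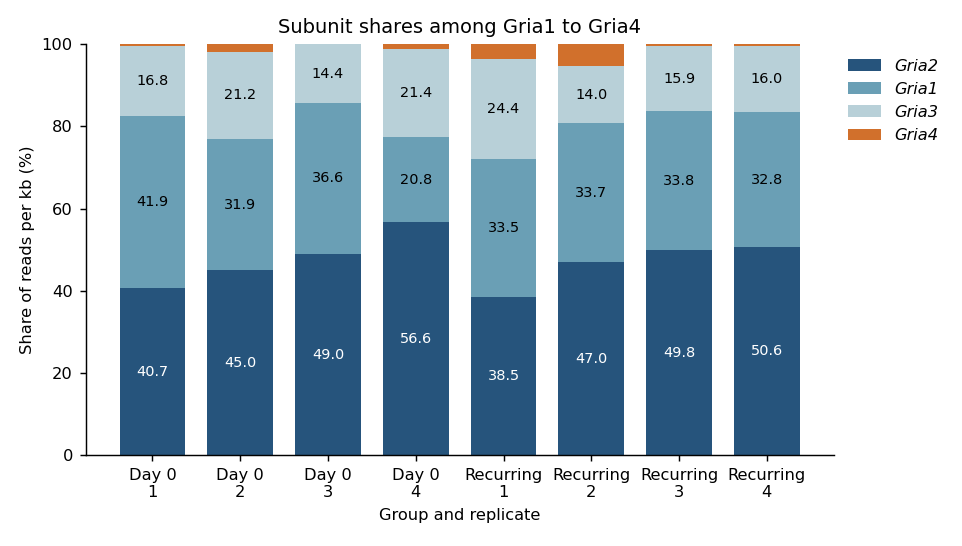
Share of each subunit gene in the reads per kb of Gria1 to Gria4 (vertical axis, %) in each of the 8 libraries, with Gria2 at the bottom and Gria4 at the top of each bar. Gria1 takes 32.8% to 33.8% in the Recurring libraries and 20.8% to 41.9% in the Day 0 libraries.

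Cnih2 and Cnih3 encode cornichon proteins, which carry AMPA receptors out of the endoplasmic reticulum and slow their closing at the surface. Cnih2 had normalized counts of 555, 349, 505 and 898 in Day 0 and 770, 132, 309 and 1086 in Recurring replicates 1 to 4. Recurring libraries held both the lowest and the highest value, and the difference on the log2 scale was -0.34 (SE 0.87, limma adjusted p = 0.998). For Cnih3 the normalized counts were 149, 423, 57.4 and 1.0 in Day 0 and 1128, 83.2, 31.8 and 59.9 in Recurring replicates 1 to 4. Recurring replicate 1 stood highest and Day 0 replicate 4, with 1 read, stood lowest, while the rest of the groups overlapped. The Cnih3 difference of 1.17 (SE 2.14, limma adjusted p = 0.998) became -0.40 (SE 1.78) without Day 0 replicate 4. In reads per kb of both genes, Cnih2 took 86.3% ± 16.6 in Day 0 and 81.6% ± 18.5 in Recurring libraries (SD, n = 4 each; exact permutation p = 0.714). It was thus the larger part in all 8 libraries, with 57.8% as its lowest share.

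Shisa6, Shisa7 and Shisa9 encode single-pass membrane proteins, also called CKAMP52, CKAMP59 and CKAMP44, that bind AMPA receptors and alter their desensitization. Shisa7, which is known as a partner of GABA-A receptors as well, had normalized counts of 1871, 1478, 1808 and 1500 in Day 0 and 1176, 1749, 1558 and 496 in Recurring replicates 1 to 4. The Day 0 libraries lay close together, with a log2 level of 10.69 ± 0.18, and the Recurring libraries spread more widely, at 10.13 ± 0.82 (SD, n = 4 each). Recurring replicates 2 and 3 fell inside the Day 0 range and replicates 1 and 4 below it. The difference was -0.56 on the log2 scale (SE 0.54, 95% interval -1.69 to 0.58, limma adjusted p = 0.981), and -0.16 (SE 0.49) without Recurring replicate 4. Recurring replicate 4, lowest in Shisa7 and highest in Cnih2, also had the highest sum of the 5 microglial markers in the table, 6056 normalized counts against 213 to 1861 in the other libraries. None of the 5 was at 0 there, against 1 to 4 elsewhere, and the part of these cells was not tested.

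Shisa6 had normalized counts of 1880, 924, 492 and 881 in Day 0 and 2108, 685, 474 and 797 in Recurring replicates 1 to 4. The groups covered nearly the same range, with replicate 1 highest in each, and the difference was -0.12 (SE 0.67, limma adjusted p = 0.998). Shisa9 had normalized counts of 521, 47.8, 0 and 0 in Day 0 and 1.86, 0, 288 and 10.1 in Recurring replicates 1 to 4. It had reads in 5 of 8 libraries and a substantial level in 1 library of each group, with a difference of -0.37 (SE 2.48, 95% interval -5.61 to 4.88, limma adjusted p = 0.998). Among the 3 Shisa genes, Shisa7 held 63.3% ± 14.8 of reads per kb in Day 0 and 54.9% ± 18.0 in Recurring libraries (SD, n = 4 each; exact permutation p = 0.514). Shisa6 held 32.1% ± 8.76 and 40.9% ± 22.2 (SD, n = 4 each; exact permutation p = 0.457). The Shisa7 difference of -8.36 percentage points became -2.63, -2.87 or -3.61 when Day 0 replicate 3, Recurring replicate 1 or Recurring replicate 4 was left out. The Shisa6 difference of 8.75 points became 4.55, 1.9 or 2.96 when the same libraries were left out. Recurring replicate 1 had the highest Gria3, Cnih3 and Shisa6 counts of all libraries. It also had the highest astrocyte sum and the highest CA1 pyramidal sum, at 17498 and 48044. The part of either cell type in these values was not tested.

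The genes that work on AMPA receptors were read from 5 lists of 59 genes, of which 57 were in the table and 51 were tested. Of the 51, 0 passed the limma test in either direction, 23 had higher and 28 had lower means in Recurring cells, and their median difference was -0.10 on the log2 scale. At an unadjusted p under 0.05, where 3.62% of all tested genes stood, there were 2, Vps35 and Nptx1. The groups did not overlap for 1 of the 51, again Vps35, against 2.41% of all tested genes.

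TARPs, which anchor receptors at synapses through scaffold proteins, were led by Cacng3 with a mean of 498 normalized counts per kb and Cacng2, the stargazin gene, with 98.2. Their differences were 0.08 (SE 0.61) and -0.63 (SE 1.09) on the log2 scale. Cacng8, picked out after its values were seen because its product is the TARP best known from hippocampal pyramidal neurons, had normalized counts of 13.4, 56.6, 0 and 30.1 in Day 0 and 12.4, 12.9, 72.0 and 6.09 in Recurring replicates 1 to 4. That is a mean of 10.8 per kb, so Cacng8 lay below both in these nuclei. Cacng4 and Gsg1l, with reads in 3 libraries each, were below the filter on low counts, and Cacng5 and Cacng7 were not analysed here. Of the 3 TARP genes tested, 2 had higher and 1 had lower means in Recurring cells.

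Assembly and other complex proteins had 16 tested genes, 5 with higher and 11 with lower means in Recurring cells and a median of -0.36. Brinp1, whose product is found in native receptor complexes and which had the highest counts of the list, differed by -0.36 (SE 0.40). Cpt1c, an endoplasmic reticulum protein that binds newly made receptors, had the smallest p of the list, with normalized counts of 2280, 2862, 5477 and 3407 in Day 0 and 2175, 1387, 2875 and 1643 in Recurring replicates 1 to 4. Most of its Recurring values lay low, and Recurring replicate 3 fell among the Day 0 values. Its difference was -0.77 (SE 0.43, limma adjusted p = 0.981).

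Scaffold and trafficking proteins had 24 tested genes, 13 with higher and 11 with lower means in Recurring cells and a median of 0.04. Nsf, the ATPase that binds the GluA2 tail, had the highest counts and differed by -0.16 (SE 0.34). Vps35, the core subunit of the retromer, which returns receptors from endosomes to the surface, had normalized counts of 1158, 1285, 1025 and 1670 in Day 0 and 0, 29.9, 1007 and 884 in Recurring replicates 1 to 4. Recurring replicates 1 and 2, which also had the highest astrocyte sums, were far below the rest, whereas replicates 3 and 4 lay nearer the lowest Day 0 value. Summed CA1 pyramidal markers were 48044 in Recurring replicate 1, the highest of all libraries, and 31314 in replicate 2, the lowest of its group. Over all tested genes, whatever their level, 54.4% had reads in all 8 libraries. That share was not taken for genes at a level like that of Vps35. The part of astrocytes in the Vps35 values was not tested. The Vps35 difference of -4.13 (SE 1.70, limma adjusted p = 0.981) did not pass the test and was -2.08 (SE 1.03) without Recurring replicate 1.

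Adhesion proteins and pentraxins that gather receptors had 5 tested genes, 2 with higher and 3 with lower means in Recurring cells and a median of -0.51. Nptx1, a secreted pentraxin that clusters AMPA receptors, had normalized counts of 2673, 2516, 2546 and 1258 in Day 0 and 486, 2266, 82.6 and 1337 in Recurring replicates 1 to 4. Recurring replicates 1 and 3 were low and the others fell inside the Day 0 range. The Nptx1 difference of -1.86 (SE 0.82, limma adjusted p = 0.981) became -0.92 (SE 0.60) without Recurring replicate 3. Of the RNA editing enzymes, Adar differed by 1.83 (SE 1.63), with 1.0 normalized count in Day 0 replicate 4 and 193 to 1104 in the other libraries, and by -0.19 (SE 0.85) without Day 0 replicate 4. Adarb1, named after its values were seen because its product edits the Gria2 pore codon printed above, ranged from 6.09 to 981 normalized counts and differed by -0.54 (SE 1.62, limma adjusted p = 0.998).

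**Figure D5:**
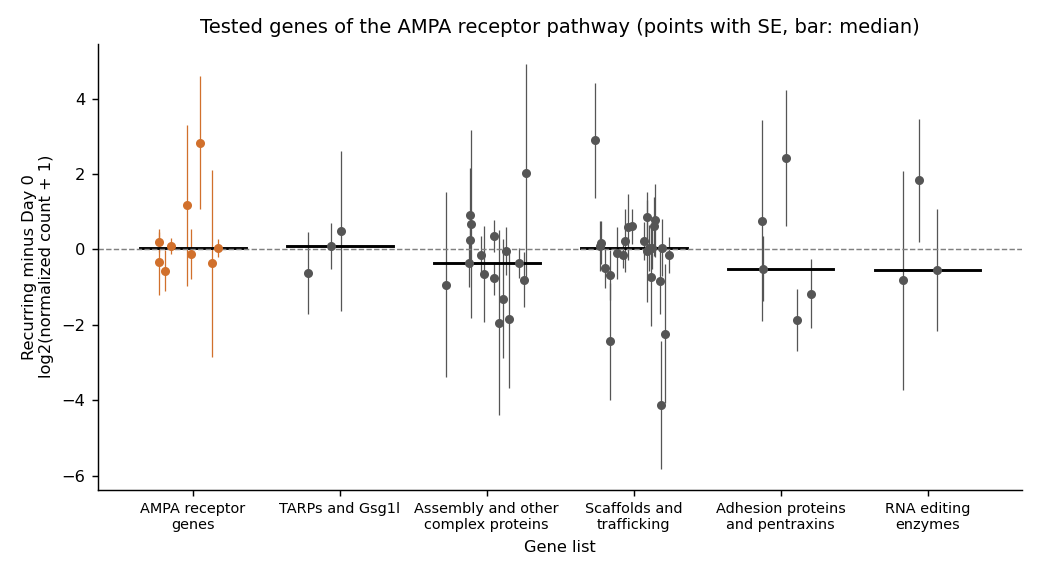
Differences between Recurring and Day 0 cells on the log2 scale (vertical axis) for the 9 AMPA receptor genes (orange) and the 51 tested genes of 5 lists (grey), as points with their limma SE and a bar at each list's median. The lists scatter around 0, and the lowest point, at -4.13, is Vps35.

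The genes most like each subunit across the 8 libraries were sought among 5607 tested genes with reads in all of them, leaving out the members and predicted genes or clones by symbol, by Pearson's r of the log2 levels. They were Sec22b (0.958) and Ndufaf7 (0.942) for Gria1, Dnaja3 (0.945) and Cirbp (0.932) for Gria2, Tbc1d32 (0.960) and Usp19 (0.944) for Gria3, and P2ry14 (0.983) and Chst2 (0.980) for Gria4. Each r is the highest of many over 8 points that share size factors, and is given as a description only. Gria4 stood at 0.0 in Day 0 replicate 3 and at 7.68 to 11.24 in the other libraries, so that library weighs heavily in its r.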

How the data were processed

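Nuclear RNA libraries were made with the SMART-Seq mRNA LP kit, per the labels' protocols. Reads were handled with STAR, HTSeq and GRCm39, per the submitters' processing notes, with no versions given. The authors deposited 1 table of a signal per gene and library. In it, each gene's values were whole reads times a constant of that gene, with no correction for depth. The constants equalled trimmed-mean scaling factors that treat each gene as if it were a library, relative to Ptdss1. Dividing them out gave whole reads within 0.1 read for 95910 of 95910 values above 0. On data simulated with the same scaling rule, the step recovered every read for 99.99% of 15483 genes, which checks the code only.

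Recovered reads were scaled by median-of-ratios size factors. Genes with 10 or more normalized counts in at least 4 libraries were tested with limma 3.58.1 in R 4.3.3 on log2(normalized count + 1), with a variance trend and Benjamini-Hochberg adjustment over all tested genes. A fold on this scale understates the change of low genes. The fit was run on simulated counts with known changes, which checks the code and not its power in these libraries. Shares within a library were compared by 2-sided exact permutation. Exon lengths came from GENCODE vM21, matched by symbol for 14620 genes (94.2%). In that annotation, exons of Gria2, Gria3, Gria4 and Cnih2 overlap another gene by 111, 85, 19 and 14 bases, and how such reads were counted is not given in the sources used here.

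The members, gene lists and tests were chosen with earlier results of these data known. Beside the members, the text names in each pathway list the gene of the highest mean and of the smallest p, and the 2 genes most like each subunit. Xist, single marker genes, Cacng4, Cacng8, Gsg1l and Adarb1 are named outside this rule, after their values were seen. Replicates were numbered in the order of deposit, so numbers pair nothing, and the labels give no batch. Alternatives were another pseudocount, no filter, total reads as size factor, the deposited values as they stand, no variance trend, voom, library weights, other lengths for the shares, and leaving out each library.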

Additional observations from a re-analysis of the deposited data

Results flagged for a closer look

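Within each group of 4 libraries, the highest and lowest values of the 9 genes and 8 shares were compared with the nearest other value by Dixon's ratio at its 95% critical value. Of 34 sets of 4 libraries, 5 held a value that stood apart. Chance alone marks about 1 in 20 where sets are independent and values normally distributed. Here levels and shares come from the same counts and some values are 0, so that rate is a rough guide only. Gria2 had a log2 level of 15.1 in Recurring replicate 1 and 15.69 to 15.78 in the other Recurring libraries. Gria3 was at 13.75 in Day 0 replicate 4 and at 13.30 to 13.36 in the other Day 0 libraries. Gria4 was at 0.0 in Day 0 replicate 3, which had no read of it, and at 7.81 to 9.20 in the other Day 0 libraries. The share of Shisa9 among the 3 Shisa genes was 15.7% in Day 0 replicate 1, where the other Day 0 libraries had 0% to 2.57%. It was 15.6% in Recurring replicate 3, where the other Recurring libraries had 0% to 1.05%.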

How the results depend on the processing

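No paired analysis was possible because replicate numbers were given in the order of deposit. Members and pathway genes called were 0 under every alternative run. Genes called were 0, except 2 without the variance trend, A130010J15Rik and Gm47033, chosen after their values were seen. At an unadjusted p under 0.05, limma gave 344 to 650 genes over the alternatives. Of the differences, Cnih3 turned to -0.95 with library weights, and no other member changed sign outside the fits without 1 library. Over those fits Gria2 ran from -0.03 to 0.23 (negative without Day 0 replicate 1 or 2), Gria3 from -0.07 to 0.15 (negative without replicate 1 of either group), Cnih2 from -0.78 to 0.23 (positive without Recurring replicate 2), Cnih3 from -0.40 to 2.17 and Shisa6 from -0.56 to 0.20 (positive without Day 0 replicate 1 or Recurring replicate 3). Shisa9 ran from -1.59 to 0.73 (positive without Recurring replicate 2) over the 3 such fits in which it passed the filter, and it did not pass with the deposited values. Cacng3 ran from -0.25 to 0.55 and Adar from -0.19 to 2.59. Gria1 (0.03 to 0.35), Gria4 (0.67 to 3.73) and Shisa7 (-0.77 to -0.16) kept their sign. Differences in shares, in percentage points, ran from -3.36 to 3.67 for Gria1, -3.69 to 1.6 for Gria2, -3.15 to 0.32 for Gria3, -12.7 to 3.24 for Cnih2 and -4.19 to 3.32 for Shisa9, and kept their sign for Gria4 (0.616 to 2.22), Shisa6 (1.9 to 16.4) and Shisa7 (-14.8 to -2.63). Gria4, Cnih3 and Shisa9 had 0 to 3 reads in some libraries. The causes were not tested.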
